A study of Oryza sativa Indica Group with 45 samples.

Results

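Leaves and roots of rice plants of 40 to 60 days were compared on 18 of the 45 arrays of the series, 9 of mature leaf and 9 of mature root, chosen by the sample titles. Each organ was taken from the indica hybrid MRP5401 and from its parents, the male parent PR319 (R line) and the female parent PMS80 (B line), with 3 arrays per genotype and organ that the labels call biological replicates. The labels do not say whether a replicate was 1 plant or a pool, and their growth text, the same for every sample, describes hydroponic culture of surface-sterilized seed at 28 °C, so that for the 40 to 60-day plants the sources used here give neither the growth conditions nor the hour of harvest. The other 27 arrays held leaves and roots of 14-day-old seedlings, which enter the last comparison below, and flag leaves, which were not used here. Each array is an Affymetrix Rice Genome Array, on which a probe set, a group of short probes against 1 transcript, gives 1 intensity.

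A mature rice leaf is a photosynthetic organ. Its mesophyll cells fill their chloroplasts with light-harvesting proteins, photosystems and the enzymes of the Calvin cycle, and export sucrose. A root of the same plant imports that sucrose, takes up water and mineral nutrients through channels and transporters in its outer cell layers and endodermis, and keeps dividing at its tips and in new crown roots. Rice roots often stand in soil with little oxygen, where pyruvate decarboxylase and alcohol dehydrogenase keep glycolysis running by fermentation to ethanol.

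Levels below are log2 intensities, so that a difference of 1 is a factor of 2, and differences are mature leaf minus mature root, averaged over the 3 genotypes, ± SE from limma. A gene is called higher or lower only where the adjusted p (Benjamini-Hochberg, over all probe sets tested) was under 0.05. Levels under 5 were treated as near background, and where the dimmer group's mean lay there it was set to 5 and the difference is given as "at least". Levels of different probe sets are not compared with each other. In whole organs, fewer cells of a type and less RNA per cell cannot be told apart. Precision is limited by the 9 arrays per organ.

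Leaf and root differed in most of the transcripts measured. Of 22314 probe sets with a mean of 5 or more in at least 1 of the 6 groups, 19965 passed the test (89.5%), 8102 of them higher in leaf (36.3%) and 11863 lower (53.2%). The adjusted p alone therefore separates few genes from the rest, and the counts below also use a stricter rule, chosen after the data were seen: a passed test and a difference of at least 4-fold with means under 5 set to 5. By that rule 3152 probe sets were higher in leaf (14.1%) and 3500 lower (15.7%). All 9 leaf arrays lay above all 9 root arrays for 5136 probe sets (23.0%), and all 9 root arrays above all 9 leaf arrays for 6949 (31.1%). The median difference over all probe sets tested was -0.42, and -0.20 after quantile normalization of the arrays, so that small differences below 0 are close to the centre of the data. In each genotype alone the count was of like size, at 18034 in the hybrid (80.8%; 32.4% higher and 48.5% lower), 17655 in the R line (79.1%; 34.4% higher and 44.7% lower) and 17708 in the B line (79.4%; 32.2% higher and 47.1% lower). By the 4-fold rule 14.3% were higher and 17.3% lower in the hybrid, and 14.6% and 16.1% in the B line. In the R line 3358 were higher and 3771 lower by that rule.

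The arrays separated by organ. The first principal component held 84.8% of the variance and divided leaf from root, and the correlation of an array with the others of its group lay between 0.974 and 0.991, against 0.374 to 0.409 with arrays of the other organ. Median intensities lay between 6.89 and 7.19. One measure of RNA quality, the 3′ minus 5′ signal of 4 control genes (the 3′ index), was 2.00 to 2.88 on the leaf arrays, 3.40 to 3.94 on root arrays of the hybrid and the B line, and 1.49 to 1.69 on root arrays of the R line. With that index as a covariate 17601 probe sets passed, 17381 of them in common with the fit without it. With the mean of the spike-ins, control transcripts added at hybridization, as a covariate 17796 passed, 17647 of them in common.

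Marker genes checked the labels. Of 10 markers of leaf mesophyll, 9 were tested and all 9 were higher in leaf by 4-fold or more, and the remaining one, RBCS1, was under 5 everywhere. Their mean lay between 12.43 and 12.75 on leaf arrays and between 3.19 and 3.61 on root arrays, without overlap. Among 9 root markers 7 were tested and the picture was mixed: 5 were lower in leaf, NAAT1 was higher in leaf, and Lsi1, the silicon influx channel, had 8.92, 9.95 and 10.09 in leaf (lowest, median and highest of 9 arrays) and 8.55, 10.02 and 10.50 in root, with a difference of -0.24 ± 0.18 (adjusted p = 0.2). It passed as lower in leaf without hybrid root replicate 2 (-0.39, adjusted p = 0.0073) and with the spike-ins as a covariate (-0.76, adjusted p = 0.0234). Of the 5 lower ones 3 were lower by 4-fold or more. NAS1, 1 of the 5, lost its call with either array covariate (adjusted p = 0.59 and 0.169) and with values under 5 set to 5 (0.0975). AMT1-2, another of the 5, lost its call after quantile normalization (adjusted p = 0.0502). YSL15 and NAS2 were under 5 in every group. All 5 markers of dividing cells that were tested were lower in leaf. Of 10 panicle and pollen markers 7 were under 5 in every group, and of 7 endosperm storage protein genes 6 were, the exception being GLUA-2, at 9.56, 9.82 and 10.07 in leaf and 7.22, 8.31 and 8.78 in root.

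Genes of the light reactions were mostly higher in leaf. Of 18 genes of light harvesting and the photosystems, 17 were higher in leaf by at least 4-fold and 1 was lower, and the median difference of the list was 8.95, against -0.42 for all probe sets tested. ADI1, a ferredoxin, which carries electrons away from photosystem I, had 15.37, 15.58 and 15.68 in leaf and 1.96, 2.03 and 2.40 in root. PETE encodes plastocyanin, the copper protein between the cytochrome complex and photosystem I, and it read 15.36, 15.49 and 15.79 in leaf and 2.88, 3.72 and 4.89 in root. LHCP, a light-harvesting chlorophyll-binding protein, stood at 15.09, 15.21 and 15.31 in leaf and 1.93, 2.72 and 2.95 in root. In each of these genes the organs were far from overlapping, with the root at background, so that the differences were at least 10.55, 10.54 and 10.20, for ADI1, PETE and LHCP in that order. CAB2R, another chlorophyll-binding protein, and petC, the Rieske protein of the cytochrome complex, were higher by at least 10.15 and 10.17. PSAH of photosystem I and PSB28 of photosystem II were higher by at least 8.51 and 8.97. The one member that was lower in leaf was atpB, a subunit of the chloroplast ATP synthase encoded in the plastid genome, at 11.88, 12.13 and 12.27 in leaf and 12.55, 13.01 and 13.61 in root.

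**Figure D1:**
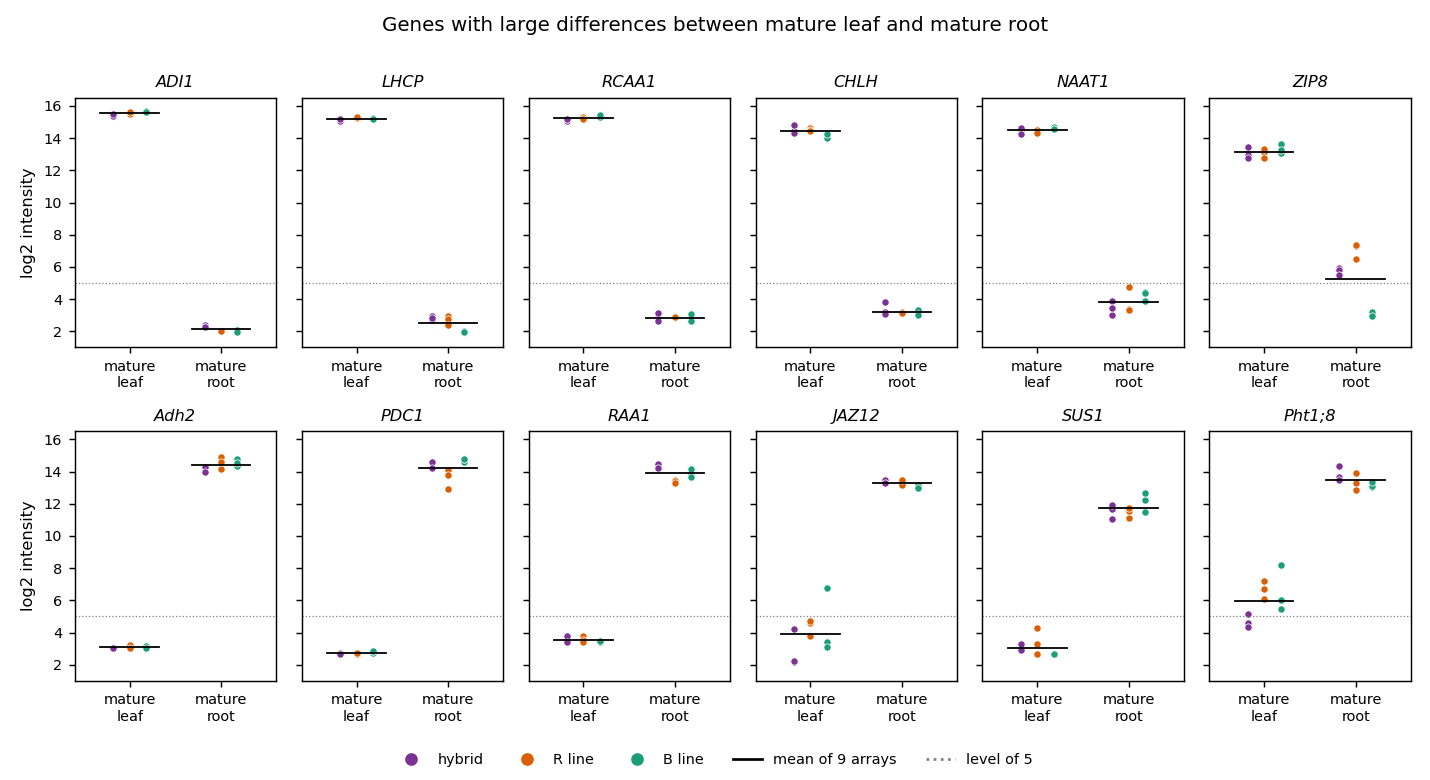
Log2 intensity (y axis) on each of the 9 mature leaf arrays (left in each panel) and 9 mature root arrays (right) for 12 genes. Points are arrays, coloured by genotype, bars are means of 9 and the dotted line marks the level of 5. In the upper row every leaf array lies above every root array, and in the lower row every root array lies above every leaf array.

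Carbon fixation and chlorophyll synthesis followed the same direction. Of 9 Calvin cycle and photorespiration genes tested, 8 were higher in leaf by 4-fold or more. RCAA1, Rubisco activase, which keeps the carbon-fixing enzyme active, had 15.06, 15.22 and 15.44 in leaf and 2.63, 2.86 and 3.16 in root, at least 10.25 higher. Chloroplast fructose-bisphosphatase (FBPase) and the plastid aldolase ALDP were higher by at least 7.85 and 7.31. Glycolate oxidases, which act in photorespiration, parted by member: GLO5 was higher by 6.64 ± 0.32 and GLO1 lower by 1.82 ± 0.09. Among 18 genes of chlorophyll synthesis and breakdown, 15 were higher by 4-fold or more and 1 was lower. CHLH, a subunit of the magnesium chelatase that commits a porphyrin to chlorophyll, was at 14.04, 14.42 and 14.84 in leaf and 3.04, 3.13 and 3.80 in root. CHLP, which makes the phytol tail, was higher by at least 9.23 and CAO, which makes chlorophyll b, by at least 6.09. The gene that ran the other way was SGR, which removes magnesium from chlorophyll during its breakdown, at 6.52, 6.91 and 9.41 in leaf and 8.91, 10.50 and 10.97 in root, a difference of -3.10 ± 0.26 with 1 or more arrays overlapping.

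GLK1, a transcription factor that activates chloroplast genes, was read at 12.08, 12.51 and 12.87 in leaf and at 3.28, 3.37 and 3.59 in root. Of 22 genes for plastid proteases and protein translocation, 14 were higher in leaf by at least 4-fold and 1 was lower. TATC, of the thylakoid protein translocation channel, was higher by 6.26 ± 0.10 and THF1, which acts in thylakoid formation, by 5.87 ± 0.10. The member lower in leaf by that rule was CLPD1, a Clp chaperone, with a difference of -2.81 ± 0.37. Other genes among the 15 furthest up in leaf were Trx03, a thioredoxin, cdsp32, a chloroplast thioredoxin-like protein, PEX11-1, a peroxisome division protein, and PDX12, of vitamin B6 synthesis, which were higher by at least 9.49, 9.41, 9.39 and 8.88. For all 30 genes named as furthest up or down the adjusted p was 2.46e-12 or smaller.

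Related enzymes of several families divided between the organs. GLN2, the chloroplast glutamine synthetase that refixes photorespiratory ammonium, had 14.33, 14.43 and 14.73 in leaf and 5.68, 7.64 and 8.77 in root, and the cytosolic forms GLN1-2 and GLN1-1 differed by 0.76 ± 0.14 and -0.60 ± 0.12. Neither small difference held throughout: GLN1-2 had adjusted p = 0.369 with the spike-ins as a covariate, and GLN1-1 0.876 without the R line. LFNR1, the leaf ferredoxin-NADP reductase, was higher in leaf by at least 8.47, and both genes with the symbol FNR were lower, by 2.42 ± 0.11 and 0.54 ± 0.11, of which the smaller had adjusted p = 0.495 with the 3′ index as a covariate. Ascorbate peroxidase APX8 of the chloroplast was higher by 8.38 ± 0.15 and its relative APX7 lower by 5.34 ± 0.12. The catalases were opposed as well: CAT-A had 7.73, 8.49 and 9.59 in leaf and 3.57, 4.63 and 7.47 in root, and CAT-B was lower by 3.26 ± 0.11. Over the whole list of 36 glutathione and antioxidant genes the directions were even, with 17 higher and 17 lower.

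Sucrose and starch genes moved in both directions. Of 37 sucrose and starch genes tested, 12 were higher in leaf by 4-fold or more and 7 lower. Among those higher were starch synthesis genes, namely SS2 and SS1, starch synthases, by at least 7.64 and 6.54, and AGPS2, a subunit of ADP-glucose pyrophosphorylase, by 6.31 ± 0.26. Among those lower was AMY1.3, a starch-degrading amylase, by at least 5.70. SUS1, a sucrose synthase, which splits sucrose in sink tissue, read 2.66, 2.93 and 4.27 in leaf and 11.07, 11.65 and 12.65 in root, and the invertase CINV1 read 6.50, 7.16 and 7.77 in leaf and 12.06, 12.33 and 12.81 in root. Other invertases ran the other way, with NIN3 higher by 3.22 ± 0.10 and CIN4 by 1.66 ± 0.18. SUS2 was lower by 2.60 ± 0.16, but SUS6 and SUS4 were higher, so that the sucrose synthase family moved in both directions. The sugar transporter genes SWEET2b and SWEET2a were opposed as well, with SWEET2b higher by at least 6.10 and SWEET2a lower by at least 4.72.

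Fermentation genes were lower in leaf. Each of the 5 genes tested of fermentation and of the non-symbiotic haemoglobins was lower in leaf by at least 4-fold, with a median difference of -8.27. Adh2, an alcohol dehydrogenase, was at 3.04, 3.05 and 3.20 in leaf and 13.96, 14.37 and 14.89 in root. PDC1, a pyruvate decarboxylase, was at 2.67, 2.73 and 2.85 in leaf and 12.92, 14.24 and 14.78 in root. Both were near background on all 9 leaf arrays, Adh2 at least 9.44 and PDC1 at least 9.22 lower there. PDC2 was measured in both organs, at 9.32, 10.05 and 10.27 in leaf and 11.54, 12.82 and 14.05 in root. The haemoglobins NSHB2 and NSHB1, which bind oxygen and scavenge nitric oxide, were lower by at least 6.63 and 3.93. A further decarboxylase gene, PDC3, was under 5 in every group.

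Nitrogen uptake and assimilation genes moved in both directions. Of 18 nitrogen genes tested, 5 were higher in leaf by 4-fold or more and 5 lower, against 14.1% and 15.7% of all probe sets. Fd-GOGAT, which works with GLN2 in the chloroplast, was higher by 4.48 ± 0.11. Nitrate reductase NIA1, which makes nitrite from nitrate, had 13.27, 13.47 and 13.69 in leaf and 6.95, 7.98 and 11.77 in root, where the genotypes differed, as given further on. Glutamate dehydrogenase GDH2 ran the other way, at 6.40, 6.90 and 7.57 in leaf and 11.88, 14.56 and 15.07 in root. The high-affinity nitrate transporter gene NRT2.3 was lower by at least 2.40 and the ammonium transporter gene AMT3-2 by 3.69 ± 0.34, both on probe sets that can cross-hybridize.

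Of 17 phosphate genes tested, 8 were lower in leaf by at least 4-fold and 3 higher. Pht1;8, a phosphate uptake transporter, had 4.34, 6.02 and 8.18 in leaf and 12.83, 13.37 and 14.35 in root, at least 7.38 lower. PHO1-2, which loads phosphate into the xylem, was lower by at least 4.05, whereas its relative PHO1-3 was higher by at least 3.22. The LPR genes, named for low phosphate root, were opposed in the same way, with LPR2 higher by at least 6.80 and LPR1 lower by at least 3.23. Of 18 potassium transport genes 4 were higher by 4-fold or more and 5 lower, against 14.1% and 15.7% of all probe sets. HAK17 and HAK27 were higher by at least 4.88 and 4.03, and HAK9 was lower by 4.46 ± 0.16 and HAK1, a high-affinity root uptake transporter, by at least 3.04.

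Metal transport genes moved in both directions, and some best known from roots were higher in leaf. Of 40 genes tested for iron, zinc, copper and manganese, 7 were higher in leaf by 4-fold or more and 5 lower. These shares are near the 14.1% and 15.7% of all probe sets tested. NAAT1, nicotianamine aminotransferase, which makes the precursor of the iron chelators that grass roots secrete, had 14.25, 14.53 and 14.67 in leaf and 3.01, 3.86 and 4.76 in root, at least 9.50 higher. Zinc transporter genes varied. ZIP4 had 12.53, 12.97 and 13.51 in leaf and 4.79, 5.89 and 7.59 in root, ZIP8 was higher by at least 7.22 and ZIP5 by at least 6.46. No root array reached the lowest leaf array for NAAT1 or for these 3 genes. ZIP2 was higher by 0.98 ± 0.21 and ZIP1 lower by at least 1.01. In the other direction, the ferrous iron transporter gene IRT1 had 3.56, 3.61 and 5.70 in leaf and 8.88, 10.20 and 11.16 in root. HMA4, a metal-pumping ATPase, and YSL12, a transporter of metal chelates, were lower by 5.33 ± 0.17 and 5.25 ± 0.10. Silicon transport held 1 gene in each pattern beside Lsi1: Lsi6, which unloads silicon from the xylem in shoots, was higher by 3.70 ± 0.33 on a probe set that can cross-hybridize, and Lsi2, the efflux carrier of roots, was lower by at least 3.78.

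Aquaporins, the water channels, gave 4 of 18 genes higher in leaf by 4-fold or more and 4 lower. The shares over all probe sets tested were 14.1% and 15.7%. TIP1-2, of the vacuolar membrane, had 14.17, 14.78 and 15.08 in leaf and 5.28, 8.14 and 9.99 in root. PIP2-7, of the plasma membrane, had 13.97, 14.32 and 14.55 in leaf and 3.07, 7.52 and 10.40 in root. PIP2-4 was lower by 4.41 ± 0.25, and TIP2-1, a root form, by at least 2.99. PIP2-1 was bright in both organs, at 13.92, 14.46 and 14.59 in leaf and 13.24, 14.71 and 15.07 in root, and did not pass the test (-0.11 ± 0.09, adjusted p = 0.26), although it did after quantile normalization (-0.45, adjusted p = 0.000281) and without B line root replicate 2 (-0.19, adjusted p = 0.0213).

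**Figure D2:**
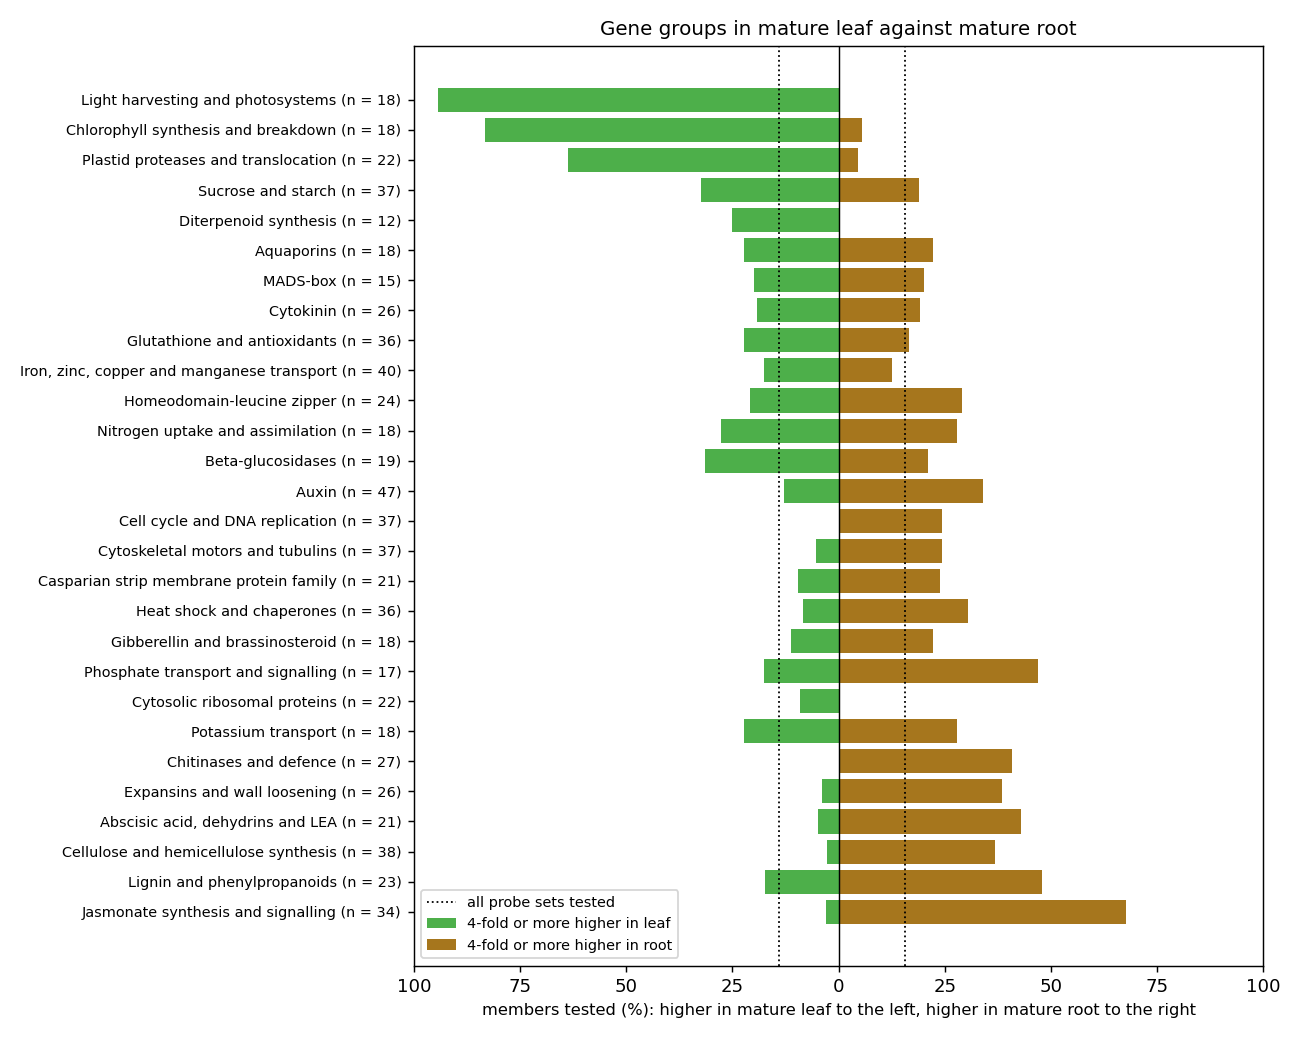
Share of the tested members of each gene list (x axis, percent, lists of 10 or more tested members, ordered by median difference with means under 5 set to 5) that were at least 4-fold higher in mature leaf (bars to the left) or in mature root (bars to the right), with a passed test. Dotted lines mark the same shares over all probe sets tested, 14.1% to the left and 15.7% to the right, which light harvesting exceeds on the leaf side and jasmonate on the root side.

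Wall building and lignin genes more often passed the test as lower in leaf than as higher. Of all probe sets tested 53.2% passed as lower and 36.3% as higher, and by the 4-fold rule 15.7% and 14.1%. The passes were 29 against 7 of 38 for cellulose and hemicellulose synthesis and 21 against 3 of 26 for expansins and other wall-loosening genes. For lignin and phenylpropanoids they were 16 against 6 of 23. Of the 38, 14 were lower in leaf by 4-fold or more and 1 higher, CSLE1. XAT2, a xylan arabinosyltransferase, was at 2.24, 2.83 and 3.29 in leaf and 9.55, 10.34 and 10.60 in root. Of the 26 wall-loosening genes 10 were lower by that rule and 1 higher, with EXPA8 lower by at least 4.94 and XTH8 by 4.81 ± 0.33. Lignin and phenylpropanoid genes gave 11 lower and 4 higher of 23. PAL06, a phenylalanine ammonia-lyase, which opens the pathway, was lower by 8.20 ± 0.38, the laccase LAC24 by at least 6.04 and the ligase 4CL5 by at least 5.90. Yet 4CL2, another ligase, was higher by at least 5.93 and CAD3, of the cinnamyl alcohol dehydrogenase family, by 6.93 ± 0.15, so that both families have members at each end. In the family related to the Casparian strip membrane proteins, 5 of 21 were lower and 2 higher, from CASPL1U3 (at least 6.47 lower) to CASPL2A1 (at least 5.65 higher).

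Jasmonate genes were mostly lower in leaf. Of 34 genes of jasmonate synthesis and signalling, 23 were lower in leaf by 4-fold or more and 1 was higher, LOX2, and the median difference was -4.56, against -0.42 for all probe sets tested. The JAZ genes encode repressors that are themselves switched on by jasmonate. JAZ12 had 2.19, 3.78 and 6.78 in leaf and 12.99, 13.27 and 13.49 in root, and JAZ11 had 2.42, 3.56 and 5.21 in leaf and 12.77, 13.35 and 13.62 in root. LOX5, a lipoxygenase, the kind of enzyme that starts the synthesis, had 6.62, 7.40 and 8.11 in leaf and 12.47, 13.72 and 13.99 in root. In all 3 genes the highest leaf array stayed below the lowest root array. The receptor genes went the other way by small amounts, with COI1B higher by 1.57 ± 0.10, COI1 by 0.89 ± 0.09 and COI2 by 0.54 ± 0.07.

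Auxin genes were more often lower in leaf, 16 of 47 by 4-fold or more against 6 higher. ARF1, a response factor, was lower by 6.10 ± 0.21 and GH3.2, which conjugates auxin, by at least 5.26. PIN5a, an auxin carrier, was at 11.24, 11.79 and 12.06 in leaf and 3.61, 4.34 and 5.91 in root. Cytokinin genes were even, with 5 of 26 higher and 5 lower, near the 14.1% and 15.7% of all probe sets tested. The LOG family of cytokinin-activating enzymes held both, LOGL5 higher by 3.42 ± 0.09 and LOGL9 lower by at least 3.55. For gibberellin and brassinosteroid 2 of 18 were higher and 4 lower, also near those shares. GA20OX2, the gibberellin oxidase of the green revolution dwarfs, was higher by 2.63 ± 0.12 and its relative GA20OX3 lower by at least 3.79. Abscisic acid, dehydrin and LEA genes gave 9 of 21 lower and 1 higher. salT, a salt-induced lectin, was at 2.96, 3.41 and 3.60 in leaf and 10.48, 14.02 and 15.17 in root, and PM19L1, a membrane protein of dehydration, was lower by at least 5.91.

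Defence and metal-binding genes were mostly lower in leaf. Of 27 chitinase and defence genes 11 were lower by at least 4-fold and 0 were higher by that rule, although 6 passed the test as higher. RIXI, a xylanase inhibitor, was at 3.08, 3.13 and 3.16 in leaf and 9.53, 11.87 and 12.54 in root. NH1, the salicylic acid response regulator of rice, and the chitinase Cht6 were lower by 5.89 ± 0.19 and 5.65 ± 0.14. Of 6 metallothioneins, small metal-binding proteins, 5 were lower, with MT4C lower by at least 7.94 and MT1B by at least 5.93. Of 36 heat shock proteins, heat shock factors and chaperones 11 were lower by 4-fold or more and 3 higher, with HSP18.1 and HSFA2C lower by at least 6.47 and 5.42, HSP16.0 higher by at least 4.58 and the chaperone CLPB2 higher by 3.74 ± 0.11. Diterpenoid synthesis, which makes rice phytoalexins, gave 3 of 12 higher and 0 lower by 4-fold, among them CYP71Z6, higher by at least 3.48. Beta-glucosidases gave 6 of 19 higher and 4 lower, from BGLU16, higher by 5.28 ± 0.14, to BGLU12, lower by at least 3.50.

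Genes of growth and division were mostly lower in leaf. Of 37 cell cycle and DNA replication genes 29 passed the test as lower and 4 as higher, against 53.2% and 36.3% of all probe sets, with 9 lower by 4-fold or more and 0 higher. CYCB1-1, a mitotic cyclin, had 2.48, 2.87 and 3.79 in leaf and 5.46, 7.07 and 9.68 in root. KRP4 and KRP1, inhibitors of the cyclin-dependent kinases, were higher by 1.95 ± 0.10 and 1.24 ± 0.08, and KRP5 and KRP6 of the same family were lower by at least 2.38 and 2.77. Another inhibitor of these kinases, EL2, was among the genes furthest down, lower by at least 8.25. Of 37 genes for tubulins and cytoskeletal motors 31 passed as lower and 4 as higher, with 9 lower and 2 higher by 4-fold or more. Their median difference was -2.24 as measured and -0.85 with means under 5 set to 5. Cytosolic ribosomal protein genes were lower for 20 of 22, none by 4-fold, with RPL30 lower by 1.74 ± 0.12. RPL18 and RPL27 ran against them. RPL18 was higher by 2.11 ± 0.27, and RPL27 was at 11.03, 11.29 and 11.41 in leaf and 4.85, 5.49 and 5.98 in root. The list was made from gene symbols, and where in the cell each protein acts was not checked.

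Transcription factor families held members of both organs. All 4 root patterning and crown root genes tested were lower in leaf, and the other 8 of the list were under 5 in every group. RAA1, which affects root architecture, had 3.40, 3.45 and 3.81 in leaf and 13.32, 13.92 and 14.45 in root. WOX11, the activator of crown root growth, had 2.14, 2.30 and 2.31 in leaf and 9.37, 10.16 and 11.02 in root. Homeodomain-leucine zipper genes were even, 5 of 24 higher by 4-fold or more and 7 lower, against 14.1% and 15.7% of all probe sets tested. Those higher included ROC1, Roc2 and Roc6, of the family expressed in the shoot epidermis, by at least 4.97, 4.74 and 4.06. HOX12 and Hox14 were lower by at least 4.74 and 4.88. Of 15 MADS-box genes 3 were higher, MADS55 by at least 4.36, and 3 lower, MADS27 by at least 3.99. Among 8 clock genes 6 were higher in leaf, with PRR37 higher by 6.79 ± 0.20 and CCA1 by 4.02 ± 0.09, and PCL1, which works at the opposite phase to CCA1, was lower by 3.46 ± 0.19. Clock transcripts change over the day, and whether leaves and roots were taken at the same hour was not stated in the labels.

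The leaf minus root difference was then compared between genotypes, which asks where an organ contrast depends on the plant. Between the parents it differed for 11612 of 22314 probe sets (52.0%), and 987 were at least 4-fold higher in the R line than in the B line (4.42%) and 1507 lower (6.75%). The root supplied the larger part of most of these, 803 of the 987 and 1373 of the 1507. The same share over all probe sets tested was not counted. The 3′ index of the R line root arrays, 1.49 to 1.69, lay below the 3.40 to 3.94 of hybrid and B line roots. With the index as a covariate the median SE grew 2.92-fold and 797 probe sets passed, 753 of them shared. Genotype and index can hardly be told apart in the roots, and the part of RNA quality in these counts was not tested further.

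Dividing-cell markers differed between the roots of the parents as well. The mean of 5 such genes was 5.04 to 6.67 in R line roots and 7.64 to 8.86 in B line roots, with hybrid roots at 5.60 to 6.71, and it stayed between 3.08 and 3.55 on all leaf arrays. All 5 had a leaf minus root difference that was higher (closer to 0) in the R line than in the B line, as had 21 of 37 cell cycle genes, with 4 lower, and 29 of 37 cytoskeletal genes, with 2 lower, against 28.3% higher and 23.7% lower of all probe sets. Other lists ran the other way, with 1 of 34 jasmonate genes higher and 18 lower and 0 of 18 aquaporins higher and 13 lower. How far the share of dividing cells in a root sample bears on these counts was not tested.

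**Figure D3:**
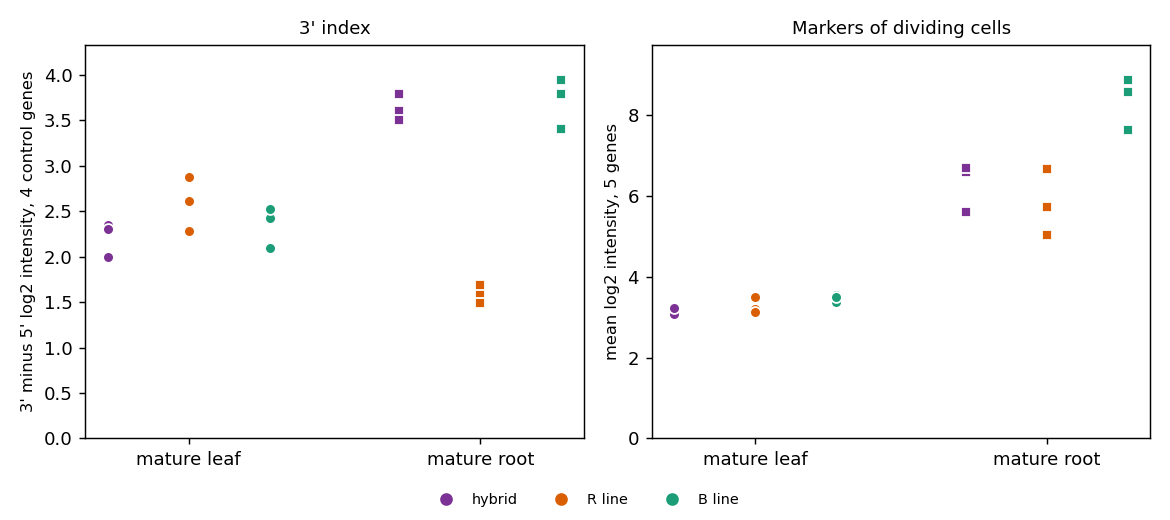
The 3′ index of each array (left, y axis, log2, 4 control genes) and the mean log2 intensity of 5 dividing-cell markers (right), by organ, with genotypes as colours and 3 arrays each. R line roots have the lowest 3′ index, 1.49 to 1.69, and B line roots the highest marker level, 7.64 to 8.86.

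Genes at the far end of the parental difference were of both kinds, set by the leaf or by the root. ACLA-2, a subunit of ATP-citrate lyase, had 9.16, 9.25 and 8.89 in R line leaves and 4.57, 5.45 and 5.06 in B line leaves, with hybrid leaves at 7.96, 7.74 and 8.58. Its root values were 8.50, 8.90 and 8.40 in the R line and 10.42, 10.08 and 10.93 in the B line, so that both organs added to a difference of 5.95 ± 0.38. In CAD8C, of the cinnamyl alcohol dehydrogenase family, the leaf set the contrast, at 11.62, 11.49 and 11.49 in the R line and 3.83, 5.33 and 5.05 in the B line. MADS26 was the reverse, at 5.02, 5.42 and 4.71 in R line leaves and 10.33, 10.34 and 10.69 in B line leaves, while its 9 root arrays lay between 6.43 and 7.51. MADS26 was therefore brighter in leaf than in root in the B line and the hybrid, and dimmer in leaf in the R line.

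Root levels set the contrast of OPR5 and OPR10, of the oxophytodienoate reductase family. OPR5 had 12.75, 13.09 and 13.41 in R line roots and 8.16, 9.09 and 7.76 in B line roots, with every leaf array at 2.52 or lower. NIA1 had 7.97, 6.95 and 7.11 in R line roots and 11.21, 11.21 and 11.77 in B line roots, against 13.26 to 13.69 in all leaves. In both genes the parents' roots did not overlap. Of the 12 genes furthest apart between the parents, with adjusted p of 0.000906 or smaller, MADS26, ACLA-2, CAD8C, OPR10 and OPR5 also passed with the 3′ index as a covariate. BURP2, PMEI28, BC1L9, NIA1, MAN7, MT4A and YSL13 did not, with adjusted p of 0.0639 to 0.931 and larger SE. As measured, without setting means to 5, the difference of NIA1 with the index was 5.11 ± 1.45 (4.17 without), that of MAN7 -6.45 ± 1.80 (-6.84), that of YSL13 -6.57 ± 2.08 (-5.73), that of BURP2 4.52 ± 3.07 (5.15) and that of BC1L9 3.16 ± 1.79 (3.30). The difference of MT4A was -2.92 ± 1.14 (-5.07) and that of PMEI28 0.42 ± 2.06 (3.62).

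**Figure D4:**
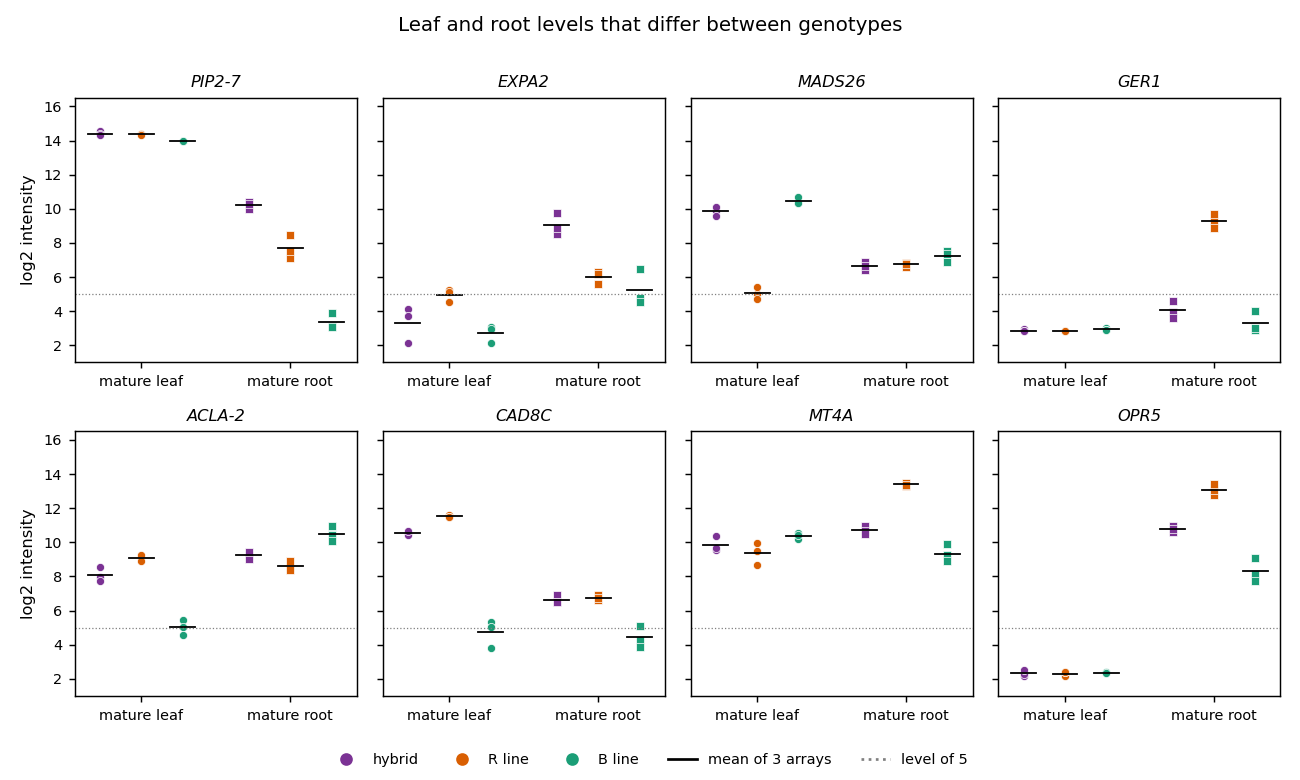
Log2 intensity (y axis) of 8 genes in mature leaf (circles, left) and mature root (squares, right), by genotype, with 3 arrays and their mean per group and a dotted line at 5. PIP2-7 is highest in hybrid roots and lowest in B line roots, MADS26 is low in leaves of the R line alone, and OPR5 differs between the roots of the 3 genotypes.

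The hybrid departed from the mean of its parents for 4399 of the 22314 probe sets (19.7%), and by 4-fold or more for 103 higher (0.462%) and 142 lower (0.636%). Array measures differ between these groups, and the counts with them as covariates were smaller: 95 probe sets passed with the 3′ index and 234 with the spike-ins, whose mean was 12.16 to 12.46 on B line leaf arrays and 10.57 to 11.95 on the others. Of the 12 genes named for this comparison PIP2-7 alone passed with either covariate. The median SE over all probe sets grew 1.94-fold with the index and 1.98-fold with the spike-ins. Among the genes that no longer passed, some differences grew with a covariate and others shrank. As measured, without setting means to 5, that of GER1 with the index was 2.68 ± 0.68 (2.22 without), that of Cht2 -3.78 ± 1.04 (-2.83) and that of CYP71P1 -4.58 ± 1.58 (-3.55), while that of LIR1 was 1.17 ± 0.72 (2.15). With the spike-ins the differences of GER1, Cht2, CYP71P1 and LIR1 were 1.86 ± 0.69, -4.30 ± 1.01, -4.70 ± 1.60 and 2.36 ± 0.80. PIP2-7 had 10.40, 9.98 and 10.28 in hybrid roots, 7.09, 8.44 and 7.52 in R line roots and 3.87, 3.15 and 3.07 in B line roots, while all leaf arrays lay between 13.97 and 14.55. Hybrid roots were therefore above both parents without overlap, and the leaf minus root difference was smaller in the hybrid, at least 3.65 below the mean of the parents (adjusted p = 2.03e-06).

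Expansin EXPA2 resembled PIP2-7 in its root values, with 9.78, 8.52 and 8.90 in hybrid roots, 5.61, 6.29 and 6.20 in R line roots and 4.76, 4.54 and 6.50 in B line roots. Its leaf arrays were mostly under 5. GER1, a germin-like protein, was above 5 in R line roots only, at 9.30, 8.86 and 9.72, and all other arrays of both organs were at 4.61 or lower. The hybrid in that case followed the B line. CYP71Z7, a cytochrome P450, had the largest adjusted p of the 12 (0.0295), which was 0.0555 to 0.0612 without any 1 of the hybrid leaf arrays and 0.0781 without hybrid root replicate 2, and its leaf values of 11.34, 7.75 and 8.61 in the B line differed widely between arrays.

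Age was the last comparison, between plants of 40 to 60 days and seedlings of 14 days, on 36 arrays. The growth conditions of the 40 to 60-day plants are not given, so age and culture cannot be told apart. A difference by age therefore means one between the mature and the seedling samples. The leaf minus root difference differed by age for 18764 of 23750 probe sets (79.0%; 45.9% higher in mature plants and 33.1% lower), with 2552 at least 4-fold higher in mature plants (10.7%) and 2052 lower (8.64%). In seedlings alone 81.6% of the probe sets passed between leaf and root, 28.0% higher in leaf and 53.6% lower, and by the 4-fold rule 8.05% were higher and 10.8% lower. Of the 3152 probe sets 4-fold higher in mature leaf than in mature root, 1528 (48.5%) were so in seedlings too, which is 81.7% of the 1871 seedling calls among the same probe sets, and 38 were called the opposite way. For those 4-fold higher in root, 1400 were shared, 40.0% of 3500 in mature plants and 56.0% of 2498 in seedlings. Array measures also differed between the ages. The 3′ index was 2.92 to 4.65 on seedling leaf arrays, against 2.00 to 2.88 on mature leaf arrays, and 2.69 to 4.19 on seedling root arrays. With the index as a covariate the difference by age passed for 16039 probe sets, 15443 of them shared. With the spike-ins it passed for 17085, 16607 of them shared.

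Photosynthesis genes separated the organs more widely in mature plants, and their levels in seedling roots were above those in mature roots. All 18 light-harvesting and photosystem genes had a higher leaf minus root difference in mature plants, by a median of 3.80. With means under 5 set to 5, the median level of the list was 13.93 in mature leaf and 5.32 in mature root, and 13.59 in seedling leaf and 11.02 in seedling root. PETE read 13.09, 13.84 and 14.93 on the 9 seedling root arrays (lowest, median and highest), where mature roots had 2.88, 3.72 and 4.89. CAB2R read 13.50, 15.06 and 15.32 in seedling root, close to its 14.88, 15.44 and 15.65 in seedling leaf. Mesophyll markers as a whole had a median of 5.00 in mature root and 6.95 in seedling root, with 1 and 8 of 10 at 5 or more, and the part of leaf cells or of greening in these values was not tested.

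Among metal transport genes the leaf minus root difference was higher in mature plants for 22 of 42 and lower for 15, against 45.9% and 33.1% of all probe sets. The 3 members furthest apart by age, named for that, were NAAT1, ZIP5 and ZIP4. NAAT1 had 14.25, 14.53 and 14.67 in mature leaf and 3.01, 3.86 and 4.76 in mature root, but 5.92, 8.02 and 9.46 in seedling leaf and 9.39, 10.29 and 11.21 in seedling root. It was thus higher in leaf at the later age and lower in leaf in seedlings, by 2.73 ± 0.20 there, and the difference between ages was at least 12.23. ZIP5 had 3.21, 3.28 and 7.07 in seedling leaf and 9.33, 10.13 and 10.62 in seedling root, and ZIP4 had 5.44, 7.26 and 10.67 in seedling leaf and 8.53, 10.10 and 11.01 in seedling root. In seedlings ZIP5 was lower in leaf by at least 4.66 without overlap and ZIP4 by 2.04 ± 0.17 with overlapping arrays, where both were higher in mature leaf. IRT1, high in mature root, was under 5 on all 18 seedling arrays.

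**Figure D5:**
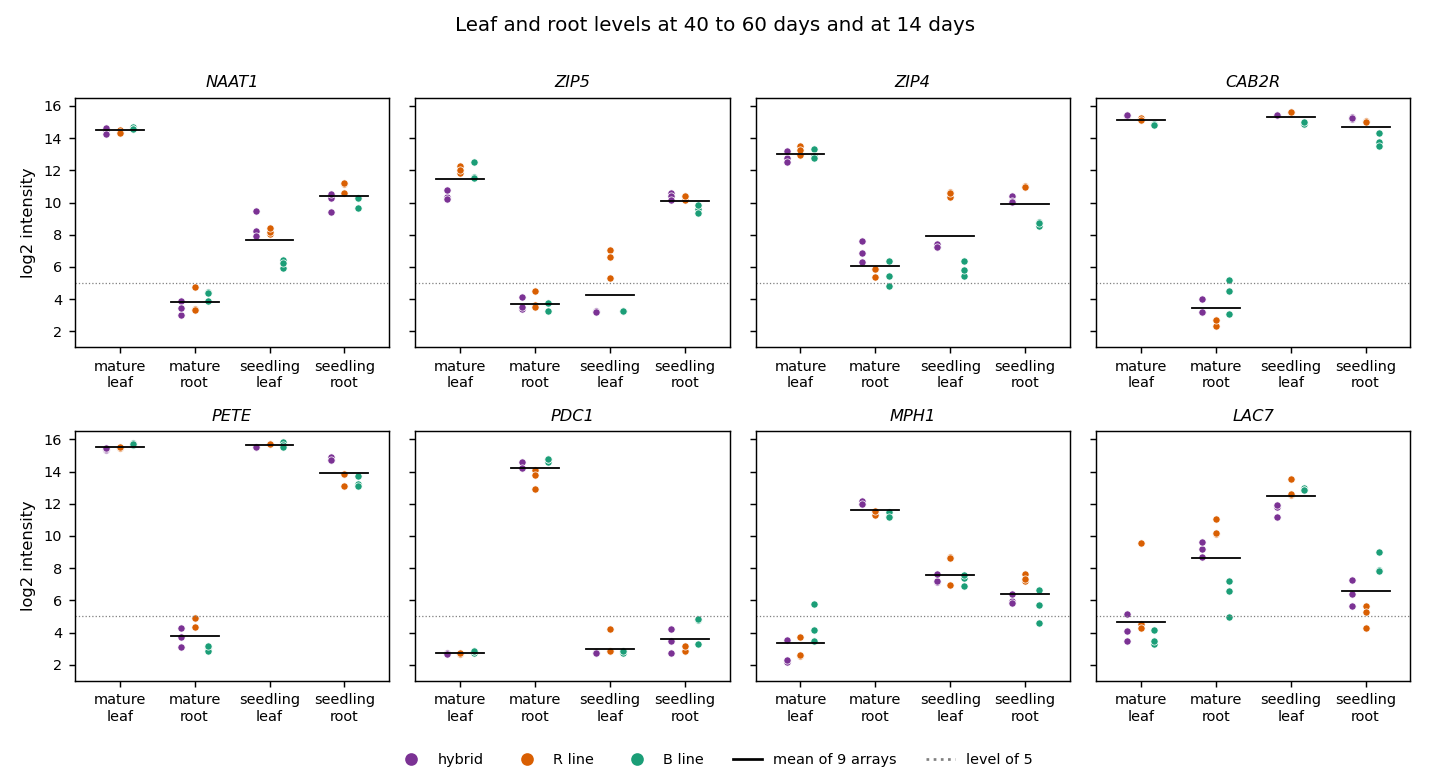
Log2 intensity (y axis) of 8 genes in mature leaf, mature root, seedling leaf and seedling root (left to right), with 9 arrays each, coloured by genotype, their mean as a bar and a dotted line at 5. NAAT1, ZIP5 and ZIP4 have means in opposite organ order at the 2 ages, CAB2R and PETE are high in seedling root and low in mature root, and PDC1 is high in mature root alone.

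Fermentation genes also differed by member between mature and seedling samples. PDC1, at 12.92 to 14.78 in mature root, was at 2.74, 3.31 and 4.84 in seedling root, whereas Adh2 was high in root at both ages, with 12.69, 13.48 and 13.93 in seedling root. For jasmonate genes the leaf minus root difference was lower in mature plants for 22 of 35 and higher for 6, and the median level of the list was 5.00 in mature leaf and 9.83 in mature root, with 7.19 in seedling leaf and 7.60 in seedling root. MPH1, a MYB transcription factor, had 11.16, 11.50 and 12.19 in mature root and 4.62, 6.42 and 7.63 in seedling root. LAC7, a laccase, and GER5, a germin-like protein, were bright in seedling leaf, at 11.18, 12.59 and 13.55 and at 11.98, 12.78 and 13.33. In mature leaf LAC7 had 3.31, 4.13 and 9.57, the last on a single R line array, and GER5 had 2.56, 2.61 and 6.34.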

How the data were processed

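Transcript levels came from the table of processed values that the authors deposited, with 57381 probe sets, 187 of them controls by name. The deposited values are intensity on a linear scale, made with GCRMA per the submitters' processing notes, with no version given. Per the labels, total RNA was extracted with Trizol and biotinylated cRNA was hybridized. No further step is recorded in the labels.

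Values under 1 were set to 1 and converted to log2, with no further normalization. Groups came from the sample titles. Non-control probe sets whose mean log2 level reached 5 in any group were fitted with limma 3.58.1 in R 4.3.3, as group means over 18 arrays (22314 probe sets, 12 residual degrees of freedom) or, for age, 36 arrays (23750, 24 degrees of freedom), with Benjamini-Hochberg adjustment. The labels call replicates biological, with no mention of separate plantings, so p-values measure the spread between these samples. No 2 arrays were identical. Python 3.11.15 and matplotlib 3.10.9 served for figures.

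Genes were named through the array's annotation and NCBI gene symbols: 22436 probe sets have 1 gene, 95 several and 34850 none, and 2457 of 17905 genes carry a name. Where a gene has several probe sets, those marked as able to cross-hybridize were passed over if another was present. Of those left, the one brightest on average over the 18 arrays stands for the gene. The members and gene lists were chosen with earlier results of these data known. Named are the 15 genes furthest up and the 15 furthest down without overlap of the organs, up to 4 members of each list in each direction, pairs of related enzymes, and the 6 furthest in each direction for the genotype and age comparisons. PDC2, PDC3, NIN3, CIN4, ZIP1, ZIP2 and KRP5 were named after their values were seen. Alternatives were quantile normalization, other level filters, a floor at 5, array weights, all 45 arrays in the fit, the replicate number as a block and each array left out. The 3′ index or the spike-ins as a covariate, and leaving out the R line, were chosen after seeing the data. Fits were tested on simulated data with noise independent between arrays. For leaf against root, 88 of 100 simulated 2-fold changes and 100 of 100 simulated 4-fold changes were recovered. For the R line against the B line, simulated as a shift of R line roots alone, 15 of 100 and 71 of 100 were. Among the unchanged probe sets 12 and 2 were called in these simulations. Of 22314 probe sets only 100 were changed at each size, and far more passed in the real data. The adjustment is less strict there, so these rates do not carry over to the counts above.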

Additional observations from a re-analysis of the deposited data

Results flagged for a closer look

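The 34 genes named for the genotype and age comparisons, of which BURP2 and MADS26 appear under both genotype comparisons, were chosen among those that passed limma's interaction test, so their passing is no finding. The values are differences between groups in the leaf minus root difference, with means under 5 set to 5. Between the R line and the B line the leaf minus root difference was higher in the R line for BURP2 by 6.44, ACLA-2 by 5.95, PMEI28 by 5.60, CAD8C by 4.78, BC1L9 by 4.47 and NIA1 by 4.17. It was lower in the R line for OPR10 (-5.50), MAN7 (-5.13), MT4A (-5.07), MADS26 (-4.91), YSL13 (-4.86) and OPR5 (-4.74).

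Between the hybrid and the mean of its parents, the difference was higher in the hybrid for BURP2 by 3.69, MADS26 by 2.43, LIR1 by 2.16, GER1 by 2.15, CASPL1C1 by 2.03 and 6PGDH2 by 2.01. It was lower for PIP2-7 (-3.65), CYP71P1 (-3.55), EXPA2 (-3.42), Cht2 (-2.83), CYP71Z7 (-2.73) and EXPA5 (-2.57). For GER1 and CASPL1C1 the hybrid lay near the B line in root and the R line apart, and BURP2 and MADS26 followed 1 parent in leaf.

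Between mature plants and seedlings, the difference was higher in mature plants for NAAT1 by 12.23, ZIP5 by 11.12, CAB2R by 9.54, ZIP4 by 9.01, PETE by 8.82 and LHCP by 7.30. It was lower for PDC1 (-9.22), LAC7 (-9.12), a gene named only as peroxidase (-8.84), CML15 (-7.83), MPH1 (-7.79) and GER5 (-7.74).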

How the results depend on the processing

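The count of probe sets that differed between mature leaf and mature root was 15667 with a mean of 7 or more required and 42302 with no level filter (29857 in the hybrid alone, 35338 in the B line alone), when 64.5% were higher in leaf against 40.6% with the filter. In the hybrid alone, 11687 passed with the 3′ index as a covariate. The hybrid against the mean of the parents gave 95 with the 3′ index, 234 with the spike-ins and 6201 with array weights, and after quantile normalization 48.0% of its calls were higher against 37.5%. The R line against the B line gave 797 with the 3′ index, of which 38.0% were higher against 54.4%. Leaving out 1 array at a time gave 19765 to 20011 for leaf against root, 17420 to 18190 in the hybrid, 17042 to 17796 in the R line, 17051 to 17778 in the B line, 3156 to 4954 for the hybrid against the parents, 10634 to 11832 between the parents and 18559 to 18780 by age. Residuals of same-numbered leaf and root arrays were almost uncorrelated (between -0.062 and 0.054). Whether such arrays came from the same plants is not stated in the labels. With the replicate number as a block the counts were 19773 for leaf against root, 3444, 10887 and 18554 for hybrid, parents and age. For single genes, each value being a gene in a comparison and an alternative setting, 8827 counted as unchanged, 62 lost the call and 6 gained it. Unchanged means the same direction and side of the threshold, or no passed test in either fit, whatever the direction. The panicle marker MADS2 changed sign after quantile normalization (0.0684, adjusted p = 0.666, against -0.47), as did GLN1-1 without the R line (0.0279, adjusted p = 0.876). CYP71Z7 lost its call in the hybrid without any 1 hybrid leaf array. After quantile normalization the median of metal transport and of homeodomain-leucine zipper genes changed from -0.06 and -0.16 to 0.06 and 0.10. The causes were not tested.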
